A study of Mus musculus with 9 samples.

Results

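The 10 genes described here encode the pyruvate dehydrogenase complex and the enzymes that switch it off and on. They are the kinase genes Pdk1, Pdk2, Pdk3 and Pdk4, the phosphatase genes Pdp1 and Pdp2, and the subunit genes Pdha1, Pdhb, Dlat and Pdhx. They were chosen by symbol, 10 of the 55416 gene identifiers in the table, and all 10 passed the filter on low counts that left 13944 genes. RNA was sequenced from the left gastrocnemius, the large calf muscle, of 3 groups of mice with 3 libraries in each. AET_MET mice ran on a motorized treadmill for 60 minutes on each of 5 days per week, during 8 weeks, and drank water with metformin, an oral glucose-lowering drug, at 2 mg/mL. AET mice had the same training without metformin, and SED mice were sedentary. The sources used here give neither strain, age and sex nor feeding state, nor the time between the last run and collection. No sedentary group with metformin was analysed here. Each group had more mice than libraries, and nothing states that the 3 samples of a group came from separate mice. P-values therefore reflect variation among these samples only, and it may be technical.

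Pyruvate dehydrogenase turns pyruvate, the product of glycolysis, into acetyl-CoA inside the mitochondrion, and so gates the oxidation of glucose. The kinases phosphorylate and inactivate its first enzyme, and the phosphatases remove the phosphate. In skeletal muscle Pdk4 is known as the kinase gene that fasting and fatty acids raise, when glucose is spared.

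Libraries held 15434424 to 25355877 expected counts, the estimated read numbers deposited by the authors. Levels are given as TMM-scaled CPM, expected counts relative to library size, and changes as log2 fold changes ± SE from edgeR's quasi-likelihood test. Calls required a Benjamini-Hochberg adjusted p, over all genes tested, under 0.05. The 10 genes of the muscle fiber list, led by Myh4, summed to 131305 to 148612 CPM in AET_MET, 131784 to 148326 CPM in AET and 134927 to 153129 CPM in SED. Of these 10, 1 was called lower in AET against SED, as were 6.45% of all genes tested. This was Acta1, skeletal actin (-0.37 ± 0.10, edgeR adjusted p = 0.0295), a call lost in 7 of 21 settings, 5 of them fits without 1 library (adjusted p up to 0.1004). Slow fiber markers were uneven between libraries, at 90.5 to 726 CPM in AET_MET, 341 to 1284 CPM in AET and 839 to 1015 CPM in SED. In bulk muscle, fewer cells of a type and less RNA per cell cannot be told apart.

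Among the 10 genes, Pdk4 and Pdp2 were the pair that fell in AET muscle. The 5' flanking sequence of both is shown because these genes of opposite enzymatic action moved together. Each runs 5' to 3' on the gene's strand, and bases that GENCODE M21 places in an exon were left out. The sequences are RefSeq's (GRCm38.p6), at chr6:5496310-5496528 on the minus strand for Pdk4 and chr8:104591222-104591450 on the plus strand for Pdp2. Capitals mark the CCAAT box (CCAAT, or ATTGG on the other strand).
Pdk4: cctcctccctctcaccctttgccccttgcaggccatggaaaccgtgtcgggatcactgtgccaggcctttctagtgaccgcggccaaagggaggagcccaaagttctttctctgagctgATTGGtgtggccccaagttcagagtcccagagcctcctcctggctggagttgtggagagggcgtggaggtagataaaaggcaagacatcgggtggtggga
Pdp2: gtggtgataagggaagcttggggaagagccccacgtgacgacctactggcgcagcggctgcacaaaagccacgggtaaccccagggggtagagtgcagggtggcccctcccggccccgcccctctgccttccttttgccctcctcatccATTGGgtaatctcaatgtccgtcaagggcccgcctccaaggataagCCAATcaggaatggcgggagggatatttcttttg
Within 250 bases before the RefSeq start, 33.8% of all 32851 promoter windows held this box on either strand. Among the genes of the set, it was also found in a window of Pdk2 and in those of Pdk3 and Pdhb. None of these genes was called in any comparison, so the box is not particular to Pdk4 and Pdp2. The FOXO core GTAAACA, the PPAR and ERR half-site AGGTCA, the glucocorticoid half-site TGTTCT and the TATA box TATAAA were searched in the same way, on both strands. None of these 4 motifs was found in the window of Pdk4 or of Pdp2, and 3.17%, 14%, 16.1% and 12.4% of all windows held them. A match or its absence in this window describes the letters alone.

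Pdk4, the most abundant of the 10 transcripts per length, was lower in both trained groups. Its level was 1657, 1695 and 1104 CPM in the AET_MET libraries, 1074, 1100.4 and 1508 CPM in the AET libraries, and 3469, 3231 and 3261 CPM in the SED libraries. Every trained library lay below every SED library, while AET_MET and AET overlapped. Pdk4 averaged 1227 ± 244 CPM in AET and 3320.4 ± 129 CPM in SED (SD, n = 3 each), a fall to 0.370 of the SED level (log2 change -1.44 ± 0.18, edgeR adjusted p = 0.00106). In AET_MET it averaged 1486 ± 331 CPM, 0.447 of the same SED level (log2 change -1.16 ± 0.17, edgeR adjusted p = 0.00776). Both comparisons use the same 3 SED libraries. AET_MET and AET differed by 0.28 ± 0.17 on the log2 scale (edgeR adjusted p = 0.387), with a 95% interval of -0.11 to 0.66. The call in AET held in all 21 alternative settings tried. The call in AET_MET was lost when the slow fiber level was a covariate, where the change was -1.04 ± 0.23 (adjusted p = 0.154).

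The other kinase genes did not pass the test in any comparison. Pdk2, the broadly expressed isoform, had 148, 143 and 132 CPM in AET_MET, 181, 152 and 165 CPM in AET, and 153, 152 and 166 CPM in SED. All 3 AET_MET libraries lay below those of AET and of SED. Its log2 change was -0.24 ± 0.08 in AET_MET against AET (edgeR adjusted p = 0.127), with a 95% interval of -0.42 to -0.05. Pdk1, known as a hypoxia-induced isoform, had 63.8, 62.8 and 65.1 CPM in AET_MET, 63.0, 60.4 and 70.9 CPM in AET, and 62.2, 60.9 and 69.4 CPM in SED. Its groups overlapped throughout, and the intervals of its log2 changes ran from -0.18 to 0.17 in AET_MET against SED and from -0.16 to 0.19 in AET against SED. Pdk3 was nearly silent, at 12 to 24 expected counts per library. It had 1.30, 0.556 and 1.08 CPM in AET_MET, 0.573, 0.781 and 0.649 CPM in AET, and 0.851, 0.925 and 0.782 CPM in SED. Every AET library of Pdk3 lay below every SED library, though only just, at 0.781 against 0.782 CPM for the closest. At this depth the 95% interval of its change was wide, from -1.09 to 0.40 in AET against SED.

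**Figure D1:**
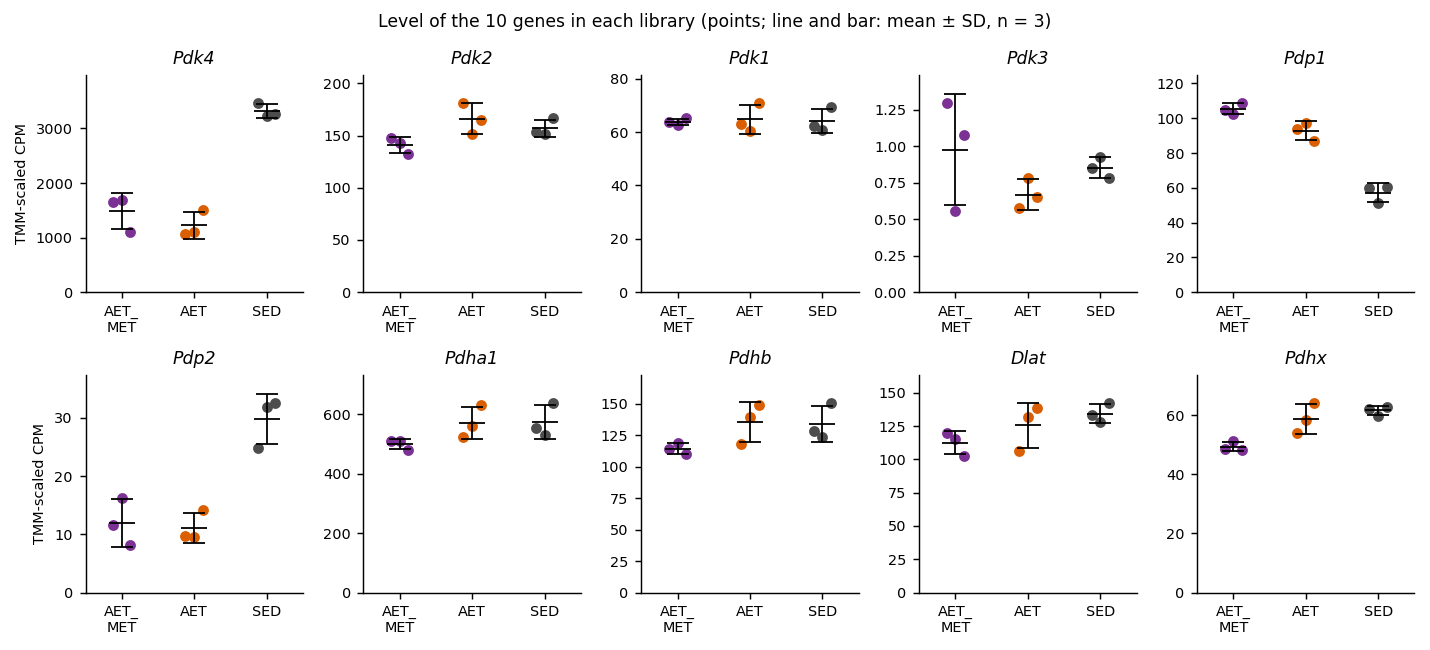
TMM-scaled CPM of the 10 genes in each library of AET_MET, AET and SED, as points, with the mean and SD of the 3 libraries. Pdk4 and Pdp2 lie lower and Pdp1 higher in both trained groups than in SED, with no overlap of libraries.

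The mix of kinase transcripts shifted with Pdk4. To compare genes, CPM was divided by the length of all annotated exons in kilobases. Pdk4 made up 89.5%, 90.0% and 86.1% of the 4 kinase genes' summed CPM per kb in AET_MET. The share was 82.3%, 84.8% and 87.5% in AET and 94.6%, 94.2% and 93.8% in SED. Pdk2 made up 9.57% ± 1.65 in AET_MET, 13.0% ± 2.40 in AET and 4.95% ± 0.338 in SED (SD, n = 3 each). The summed kinase level was 476 ± 96.3 CPM per kb in AET_MET, 411 ± 69.8 in AET and 1004 ± 36.0 in SED. Without Pdk4 the sum was 53.1 ± 2.38, 61.1 ± 4.84 and 58.3 ± 3.11 CPM per kb in these groups. Pdk4 stayed the leading kinase transcript in all 9 libraries, so the kinase sum followed it by arithmetic. The ratio of Pdk4 to Pdha1, which does not depend on scaling between libraries, was 3.15 ± 0.606 in AET_MET, 2.27 ± 0.241 in AET and 6.19 ± 0.658 in SED.

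The phosphatase genes moved in opposite directions. Pdp1 encodes the calcium-stimulated phosphatase isoform typical of muscle. It had 105, 103 and 109 CPM in AET_MET, 94.0, 97.5 and 87.0 CPM in AET, and 60.2, 51.1 and 60.6 CPM in SED. Every trained library lay above every SED library, and the AET_MET libraries lay above those of AET. Pdp1 rose by 0.88 ± 0.08 on the log2 scale in AET_MET against SED, 1.84-fold (edgeR adjusted p = 0.000571). In AET against SED it rose by 0.70 ± 0.08, 1.62-fold (edgeR adjusted p = 0.00039). Against AET, AET_MET differed by 0.18 ± 0.08 (edgeR adjusted p = 0.214), with a 95% interval of 0.01 to 0.36, so a difference of metformin-treated from other trained mice did not pass the test over all genes. Both Pdp1 calls against SED held in all 21 alternative settings.

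Pdp2, encoding the isoform that calcium does not stimulate, followed Pdk4. It had 11.5, 16.2 and 8.12 CPM in AET_MET, 9.69, 9.49 and 14.1 CPM in AET, and 24.9, 32.0 and 32.5 CPM in SED. Every trained library lay below every SED library, and the trained groups overlapped. Pdp2 changed by -1.32 ± 0.26 in AET_MET against SED (edgeR adjusted p = 0.0331) and by -1.42 ± 0.26 in AET against SED (edgeR adjusted p = 0.0122), to 0.401 and 0.373 of the SED level. AET_MET and AET differed by 0.11 ± 0.27, with a 95% interval of -0.51 to 0.72. The AET call was lost without AET replicate 1 (log2 change -1.34, adjusted p = 0.0586). The AET_MET call was lost in 10 of 21 settings: without AET replicate 1 or 2, AET_MET replicate 1 or 3, or SED replicate 2 or 3 (log2 change -1.32 to -1.10, adjusted p up to 0.121), with no low-count filter, with only the 2 groups, and with the replicate block or the slow fiber covariate.

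Together the phosphatase transcripts summed to 25.5 ± 0.167 CPM per kb in AET_MET, 22.6 ± 0.761 in AET and 17.9 ± 1.12 in SED (SD, n = 3 each). Pdp1 made up 92.0%, 88.9% and 94.4% of that sum in AET_MET, 92.5%, 92.8% and 88.6% in AET, and 75.3%, 66.9% and 70.2% in SED. The ratio of the kinase sum to the phosphatase sum was 18.7 ± 3.82 in AET_MET, 18.3 ± 3.70 in AET and 56.1 ± 3.86 in SED. As Pdk4 and Pdp1 made up most of these sums, the ratio mainly restates their changes. In no trained library did this ratio exceed 22.6, and in no SED library was it under 51.7. These are transcript levels, and neither enzyme amounts nor phosphorylation were measured.

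**Figure D2:**
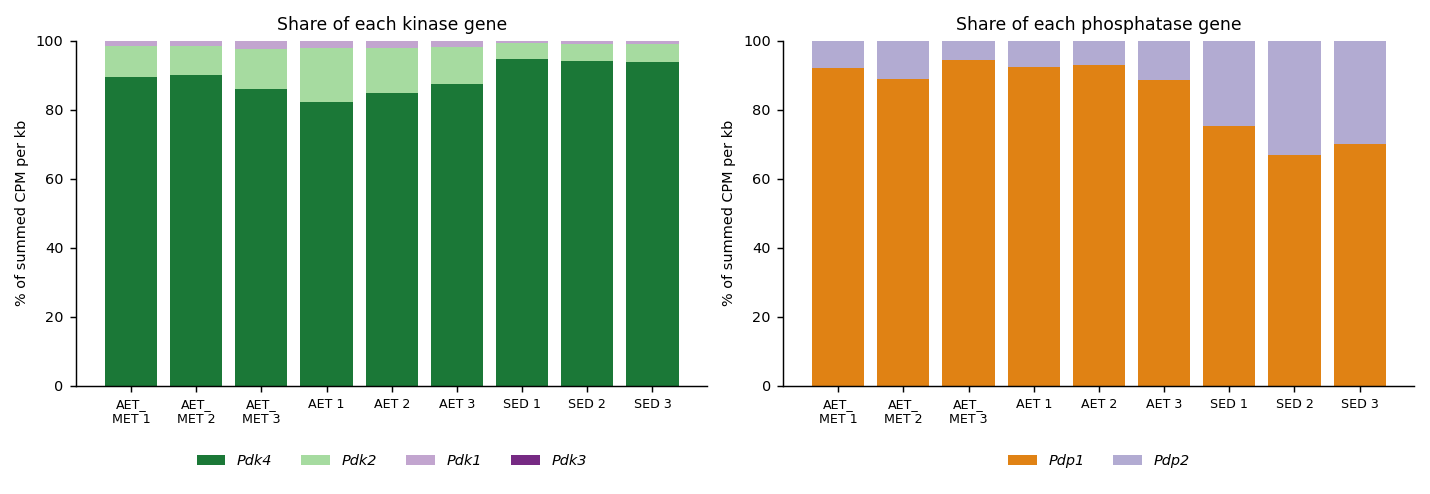
Share of each kinase gene (left) and phosphatase gene (right) in its family's summed CPM per kb, 1 bar a library, with AET_MET, AET and SED from left to right. Pdk4 takes 93.8% to 94.6% of the kinase sum in SED and less in each trained library, and Pdp1 takes 88.6% to 94.4% of the phosphatase sum in trained libraries and at most 75.3% in SED.

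Of the 4 subunit genes of the complex none was called in AET, and Pdhx was called lower in AET_MET. Pdha1 encodes the alpha subunit of the first enzyme, the one the kinases phosphorylate. It had 511, 509 and 479.8 CPM in AET_MET, 523, 561 and 631 CPM in AET, and 554, 530.2 and 638 CPM in SED. Pdhb, encoding the beta subunit, had 114, 119 and 110.2 CPM in AET_MET, 118, 139 and 149 CPM in AET, and 129, 124 and 150.3 CPM in SED. Dlat, encoding the acetyltransferase core, had 119.9, 115 and 103 CPM in AET_MET, 106, 132 and 139 CPM in AET, and 133, 128 and 142 CPM in SED. For each of these genes AET and SED overlapped, and all AET_MET libraries lay below all SED libraries. Their log2 changes in AET against SED were -0.01 ± 0.10 for Pdha1, 0.01 ± 0.10 for Pdhb and -0.10 ± 0.10 for Dlat. The widest of their 95% intervals, that of Dlat, ran from -0.32 to 0.12. In AET_MET against SED the estimates were -0.20 ± 0.10, -0.23 ± 0.10 and -0.26 ± 0.10, and none passed the test (edgeR adjusted p = 0.258, 0.204 and 0.17).

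Pdhx, encoding the protein that binds the third enzyme to the core, was the subunit gene called. It had 48.5, 51.2 and 48.4 CPM in AET_MET, 54.0, 58.6 and 64.1 CPM in AET, and 62.3, 59.9 and 62.9 CPM in SED. All AET_MET libraries lay below both other groups. Pdhx fell by 0.32 ± 0.08 on the log2 scale in AET_MET against SED (edgeR adjusted p = 0.0331). Against AET the difference was -0.25 ± 0.08 (edgeR adjusted p = 0.0769), and AET differed from SED by -0.07 ± 0.08 (edgeR adjusted p = 0.606). The AET_MET call was lost in 7 of 21 settings: without AET_MET replicate 1 or 3, without any 1 SED replicate (adjusted p up to 0.122), with library sizes alone (-0.22, adjusted p = 0.153) and with the slow fiber covariate (-0.24, adjusted p = 0.428).

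Ratios between subunits overlapped between groups. The ratio of Pdhb to Pdha1 in CPM per kb was 0.221 ± 0.00497 in AET_MET, 0.229 ± 0.0108 in AET and 0.226 ± 0.00193 in SED, and that of Dlat to Pdha1 was 0.172 ± 0.0077, 0.168 ± 0.0123 and 0.179 ± 0.00792. Dld, encoding the third enzyme, which other dehydrogenases share, had 135, 144 and 129 CPM in AET_MET, 182, 169.6 and 208 CPM in AET, and 162, 158 and 181 CPM in SED. It was lower in AET_MET than in AET (log2 change -0.45 ± 0.09, edgeR adjusted p = 0.0246), a call lost without AET replicate 1 or 3, without AET_MET replicate 1 or 3 (-0.47 to -0.37, adjusted p up to 0.109) and with the slow fiber covariate. Against SED its changes were -0.29 ± 0.09 in AET_MET (edgeR adjusted p = 0.0924) and 0.16 ± 0.09 in AET (edgeR adjusted p = 0.263). Pdpr, encoding the regulatory subunit of the phosphatase, was not called, at -0.10 ± 0.07 in AET_MET against SED and -0.08 ± 0.07 in AET against SED. Exons of Pdha1 overlap 603 bases of Map3k15 on the other strand, and Map3k15 had 12 to 27 expected counts per library, against 8291 to 15546 for Pdha1. Pdhb alone of the 10 genes had expected counts that were not whole, so part of its reads were shared with other loci.

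Counted over the set, 3 of 10 genes were called in AET against SED, 1 higher and 2 lower, where 12.3% of all genes tested were called (5.82% higher and 6.45% lower). In AET_MET against SED 4 of 10 were called, 1 higher and 3 lower, where 4.59% of all genes were called (2.17% higher and 2.42% lower). The median log2 change of the 10 was -0.21 there, against 0.0026 over all genes, and 7 of 10 had every AET_MET library below every SED library, as did 13.4% of all genes. In AET against SED the median of the 10 was -0.04, against 0.01 over all genes, and 1 gene lay wholly above SED and 3 wholly below, as did 16.4% and 16.3% of all genes. In AET_MET against AET none of the 10 was called by edgeR or by limma-voom and 1, Pdhx, by DESeq2, where edgeR called 3.43% of all genes (1.66% higher and 1.77% lower). In that comparison 1 of 10 lay wholly above and 3 wholly below AET, as did 14.7% and 13.2% of all genes. There 4 of the 10 had an unadjusted p under 0.05, as did 21.4% of all genes. With library sizes alone, 79.5% of the calls over all genes in AET_MET against SED were rises, against 47.3% with TMM, and in AET_MET against AET 79.7% against 48.3%. In AET against SED, rises were 47.4% of calls with TMM and 58% with upper-quartile scaling.

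**Figure D3:**
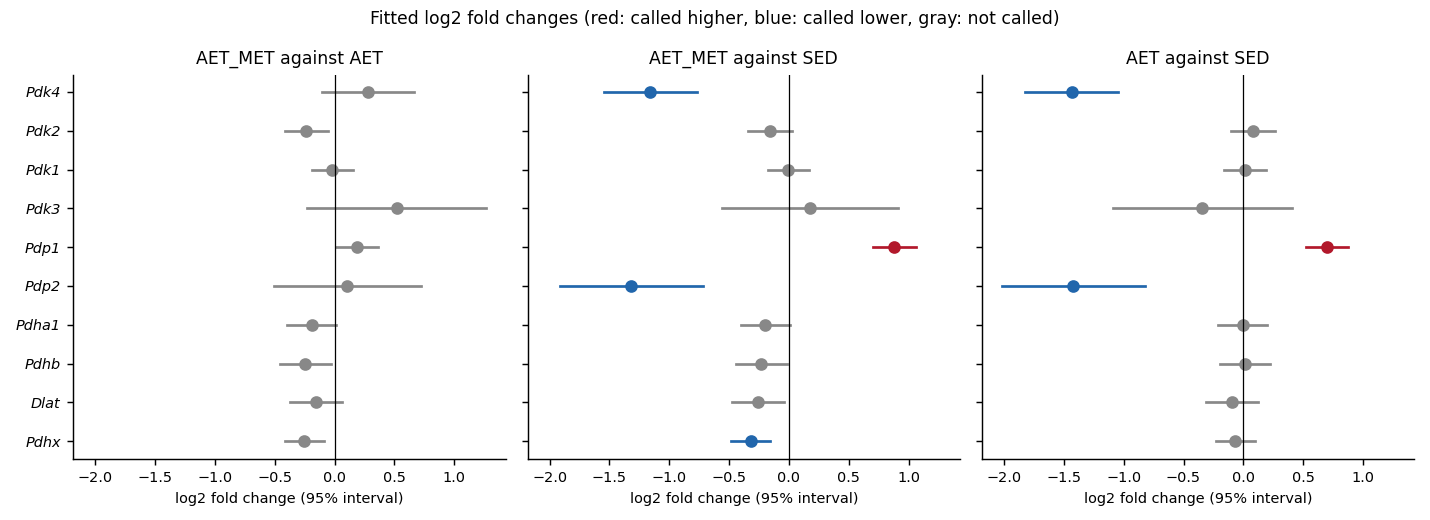
Fitted log2 fold changes of the 10 genes with 95% intervals in the 3 comparisons, red where called higher, blue where called lower and gray where not called. Pdk4 lies at -1.16 in AET_MET against SED and -1.44 in AET against SED, Pdp1 at 0.88 and 0.70, and no gene is called in AET_MET against AET.

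The order of levels per length differed between groups in the place of Pdp1. In SED, from high to low, it was Pdk4 (946 CPM per kb), Pdha1 (154), Pdk2 (49.7), Pdhb (34.7), Dlat (27.5), Pdhx (15.7), Pdp1 (12.7), Pdk1 (8.25), Pdp2 (5.23) and Pdk3 (0.333). No neighbours in that order had overlapping libraries. In AET, Pdp1 stood at 20.6 ± 1.19 CPM per kb, with all 3 libraries above those of Pdhx. In AET_MET, Pdp1 stood at 23.4 ± 0.699 CPM per kb beside Dlat at 23.1 ± 1.79, and the libraries of these neighbours overlapped. The lengths are those of all annotated exons, and the lengths RSEM used are not in the table, so the levels per length are approximate.

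Across the 9 libraries, the genes whose pattern lay closest to Pdk4 were Retreg1, Ucp3, Gpat3, Pdp2 and Klf10. Likeness was the root mean square difference of log2 CPM after each gene was centred on its own mean, over 12297 candidate genes. It was 0.16 for Retreg1, a receptor for breakdown of the endoplasmic reticulum by autophagy, and 0.17 for Ucp3, a mitochondrial carrier. It was 0.19 for Gpat3, an enzyme of triglyceride synthesis, 0.193 for Pdp2 and 0.195 for Klf10, a transcription factor. Of the other 8 genes of the set, Dlat was closest to Pdk4 at 0.58 and Pdp1 farthest at 1.03. Retreg1 had 291, 353 and 238 CPM in AET_MET, 176, 207 and 245 CPM in AET, and 542, 659 and 599 CPM in SED. The log2 changes of Klf10 were -1.14 ± 0.14 in AET_MET and -1.37 ± 0.14 in AET against SED. Retreg1 and Klf10 were picked for likeness to Pdk4 in these same libraries. Their lower levels in the trained groups follow from that choice and are no separate test. The 9 libraries fall into 3 groups, so these distances mainly compare the size of group differences and are a description.

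**Figure D4:**
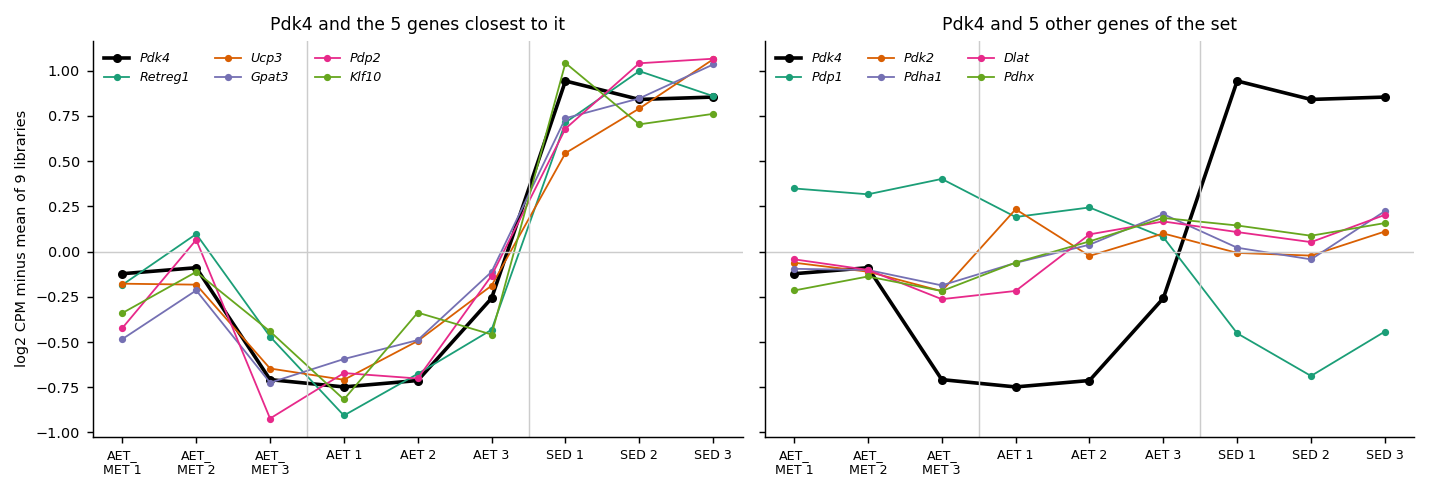
Log2 CPM of each gene minus its mean over the 9 libraries, with AET_MET, AET and SED from left to right. The left panel shows Pdk4 (black) with the 5 closest genes, whose root mean square difference from it runs from 0.16 (Retreg1) to 0.195 (Klf10) log2 units. The right panel shows Pdk4 with Pdp1, Pdk2, Pdha1, Dlat and Pdhx, none closer than 0.58.

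Slow fiber markers were set beside these results because their level varied between libraries. Of 9 slow fiber markers such as Myh7 and Tnnt1 none was called in any comparison, and all 9 had lower estimates in AET_MET than in SED and in AET, 8 lower in AET than in SED. In AET replicate 3 the markers summed to 1284 CPM, above every SED library, and Pdk4 stood at 1508 CPM there, below every SED library. In AET_MET replicate 1 they summed to 90.5 CPM, the lowest of all, and Pdk4 stood at 1657 CPM. Within each trained group, the library with the highest marker sum also had the highest Pdk4 and Pdp2. These values were 726, 1695 and 16.2 CPM in AET_MET replicate 2, and 1284, 1508 and 14.1 CPM in AET replicate 3. This did not hold in SED, where replicate 2 had the highest marker sum, 1015 CPM, and the lowest Pdk4, 3231 CPM. The highest Pdp2 of SED, 32.5 CPM, was in replicate 3. When the slow fiber level was a covariate, the log2 changes in AET against SED were -1.40 ± 0.18 for Pdk4 and -1.32 ± 0.21 for Pdp2, and Pdp1 changed by 0.68 ± 0.09, all called. In AET_MET against SED they were -1.04 ± 0.23, -0.98 ± 0.27 and 0.82 ± 0.11, of which the change of Pdp1 was called (edgeR adjusted p = 0.0134). Over all genes that fit called 20 genes in AET_MET against SED, where 640 were called without the covariate. Slow fiber content as a cause of the changes of Pdk4, Pdp2 and Pdp1 was not tested.

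**Figure D5:**
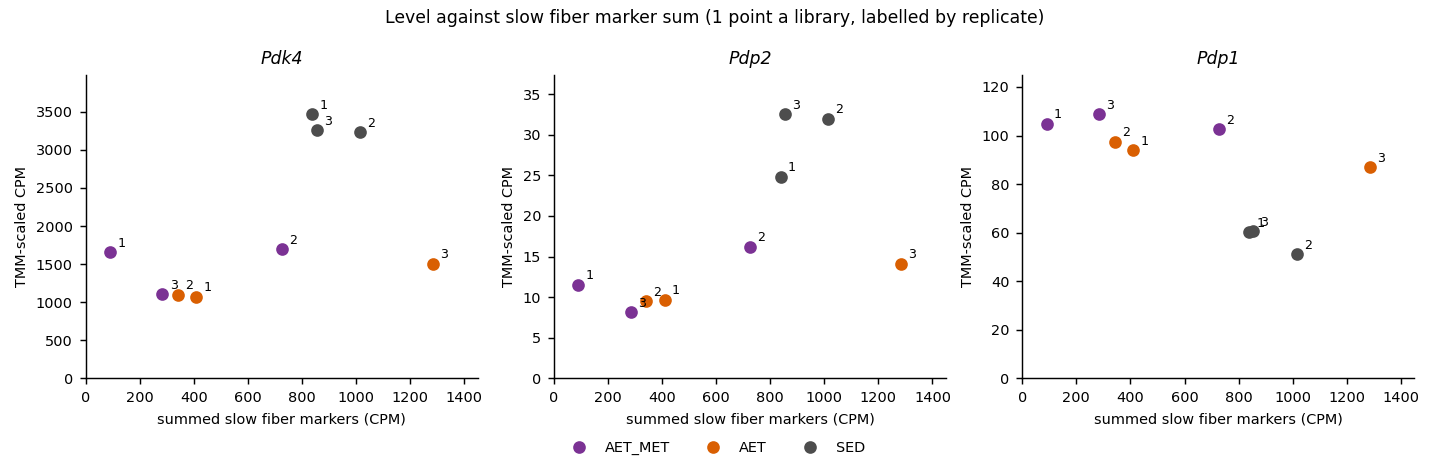
TMM-scaled CPM of Pdk4, Pdp2 and Pdp1 against the summed CPM of 9 slow fiber markers, 1 point a library, labelled by replicate. AET replicate 3 has the highest marker sum, 1284 CPM, and lies below the SED libraries in Pdk4 and Pdp2.

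Markers of other cell types were summed in each library. For the counts of called markers below, 2.42% of all genes were called lower in AET_MET against SED. In AET against SED 6.45% were called lower and 5.82% higher. Fibroblast markers summed to 580.2 to 639 CPM in AET_MET, 673 to 733 CPM in AET and 823 to 1108 CPM in SED, with 1 of 5 called lower in each comparison against SED. These were Col1a1 in AET_MET, lost in 4 of 21 settings, among them those without AET_MET replicate 1 or 3 (adjusted p up to 0.0755), and Dcn in AET, whose libraries overlapped those of SED and whose call was lost in 14 of 21, 8 of them fits without 1 library (adjusted p up to 0.139). Tendon markers summed to 87.5 to 195 CPM in AET_MET, 126 to 285 CPM in AET and 292 to 466 CPM in SED, with none of 5 called. Schwann cell markers summed to 41.7 to 88.7 CPM in AET_MET, 97.9 to 159 CPM in AET and 54.5 to 61.7 CPM in SED, with 1 of 5 called higher in AET against SED. This was Sox10, a call lost in 13 of 20 settings, 8 of them fits without 1 library (adjusted p up to 0.148). Of 6 endothelial markers 1, Cldn5, was called lower in each comparison against SED. Estimates against SED were below 0 for 5 of the 6 in AET_MET but for only 2 in AET, with median log2 changes of -0.23 and 0.08. Endothelial markers summed to 144 to 176 CPM in AET_MET, 174 to 197 CPM in AET and 177 to 211 CPM in SED. Sums of adipocyte markers were 30.3 to 122, 42.6 to 79.5 and 23.8 to 54.6 CPM in these groups, those of macrophages 57.0 to 74.5, 57.6 to 101 and 66.5 to 69.98 CPM, and those of blood 143 to 209.96, 193 to 221 and 193 to 365 CPM. None of these 3 lists held a called gene, Lep was at 0 in at least 1 library, and 1 of 4 cardiac markers was tested and was not called. Their part in the changes of Pdk4, Pdp1 and Pdp2 was not tested.

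Of 12 genes of pyruvate transport, lactate and other pyruvate use, 2 fell in AET against SED and none rose, where 6.45% of all genes fell and 5.82% rose. Their median log2 change was -0.11 in AET_MET and -0.20 in AET against SED, beside 0.0026 and 0.01 over all genes. They were Slc16a3, encoding the lactate exporter MCT4 (-0.78 ± 0.12, edgeR adjusted p = 0.00151), and Gpt2, encoding mitochondrial alanine transaminase (-1.11 ± 0.17, edgeR adjusted p = 0.00372). None of the 12 was called in AET_MET against SED. Of the 12, 1 was called in AET_MET against AET, where 3.43% of all genes were. This gene, Slc16a3, was higher, with 236, 316 and 247 CPM in AET_MET, 154, 189 and 188 CPM in AET, and 282, 313 and 319 CPM in SED (log2 change of AET_MET against AET 0.59 ± 0.12, edgeR adjusted p = 0.0239). That call was lost without AET replicate 1 or 3 or AET_MET replicate 2 or 3 (adjusted p up to 0.088). The pyruvate carrier genes Mpc1 and Mpc2 and the lactate dehydrogenase genes Ldha and Ldhb were not called in any comparison. Every AET_MET library of Ldhb lay below every AET and SED library. The log2 changes of Ldhb in AET_MET were -1.20 ± 0.35 against SED and -1.16 ± 0.35 against AET (edgeR adjusted p = 0.1223 and 0.1265). Mpc1 lay wholly below SED in both trained groups, at -0.20 ± 0.08 in AET_MET and -0.23 ± 0.08 in AET. Ldha lay wholly below SED in AET and wholly above AET in AET_MET, and the groups of Mpc2 overlapped. Of all genes, 13.4% lay wholly below SED in AET_MET and 16.3% in AET. In AET_MET against AET, 13.2% of all genes lay wholly below and 14.7% wholly above.

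Of 12 genes that make and attach lipoic acid, the cofactor of the core enzyme, 1 fell in AET against SED, where 6.45% of all genes fell, and none was called in either comparison of AET_MET. That gene, Mcat, encodes a transferase of mitochondrial fatty acid synthesis (-0.41 ± 0.12, edgeR adjusted p = 0.0419), and its call was lost in 14 of 21 settings. They included all leave-one-out fits except that without SED replicate 1 (adjusted p up to 0.143). Of 9 genes of the related 2-oxo acid dehydrogenases, 2 fell and none rose in each comparison against SED, where 2.42% of all genes fell in AET_MET and 6.45% in AET. Their median log2 change was -0.30 in AET_MET and -0.07 in AET, and these comparisons share the SED libraries. Bckdha, of the branched-chain complex, changed by -0.49 ± 0.11 in AET_MET and -0.42 ± 0.11 in AET. Dbt fell by 0.62 ± 0.15 in AET, and Dlst, of the 2-oxoglutarate complex, fell by 0.45 ± 0.09 in AET_MET. Dlst, 1 of the 9, was also lower in AET_MET than in AET (-0.42 ± 0.09, edgeR adjusted p = 0.0323), where 1.77% of all genes were lower. The calls of Bckdha, Dbt and Dlst each ended without at least 3 of the single libraries (adjusted p up to 0.139).

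Among 16 genes of factors known to act on Pdk4 or Pdk1 transcription, 3 rose and 7 fell in AET against SED, and 2 rose and 6 fell in AET_MET against SED. Of all genes, 5.82% rose and 6.45% fell in AET, and 2.17% rose and 2.42% fell in AET_MET. The list's median log2 change was -0.30 in AET_MET and -0.23 in AET. Foxo3, a forkhead transcription factor, had 36.9, 45.4 and 36.3 CPM in AET_MET, 35.6, 33.9 and 31.4 CPM in AET, and 64.7, 69.2 and 59.5 CPM in SED. It changed by -0.71 ± 0.10 in AET_MET and -0.94 ± 0.10 in AET against SED (edgeR adjusted p = 0.00297 and 0.000169), with every trained library below every SED library. Also among those that fell were the transcription factor Cebpb, at -0.92 ± 0.15 in AET_MET and -1.55 ± 0.15 in AET, and Klf15, a partner of the glucocorticoid receptor, at -0.98 ± 0.14 and -1.31 ± 0.14. Lpin1, a phosphatidate phosphatase and coactivator, changed by -0.46 ± 0.10 in AET_MET and -0.94 ± 0.10 in AET against SED, the AET_MET call being lost with library sizes alone and without AET_MET replicate 1 or 3 or SED replicate 1 or 2 (adjusted p up to 0.126). Foxo1 had 13.3, 21.4 and 13.3 CPM in AET_MET, 15.7, 11.5 and 10.5 CPM in AET, and 35.7, 45.4 and 31.8 CPM in SED. Every trained library of Foxo1 lay below every SED library, and it changed by -1.23 ± 0.24 in AET_MET and -1.59 ± 0.24 in AET (edgeR adjusted p = 0.0286 and 0.00535). The AET_MET call of Foxo1 was lost with no low-count filter, and without AET replicate 2, AET_MET replicate 1 or 3, or SED replicate 1 or 2 (adjusted p up to 0.122). The coactivator gene Ppargc1b went the other way, rising by 0.96 ± 0.16 in AET and by 0.67 ± 0.17 in AET_MET, the second a call lost with limma-voom, without robust dispersion, with the replicate block, and without AET replicate 2, AET_MET replicate 1 or 3, or any 1 SED replicate (adjusted p up to 0.148). Nr4a1 was also called higher, by 0.66 ± 0.14 in AET and 0.61 ± 0.14 in AET_MET against SED (edgeR adjusted p = 0.0129 and 0.0368). Ppargc1a was called higher in AET (0.58 ± 0.13, edgeR adjusted p = 0.0127) but not in AET_MET (0.34 ± 0.13, edgeR adjusted p = 0.149). In AET_MET against AET 2 of the 16 were higher and none lower, where 1.66% of all genes were higher. They were Cebpb (0.63 ± 0.15) and Lpin1 (0.48 ± 0.10), and each call was lost in 6 of 9 fits without 1 library (adjusted p up to 0.169 and 0.118). The part of these factors in the change of Pdk4 was not tested.

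Of 19 genes that PPAR factors and fatty acids are known to raise, as they do Pdk4, all had lower estimates in AET_MET and in AET than in SED, as did 49.5% and 48.6% of all genes tested. In each of these comparisons, which share the SED libraries, 6 fell and none rose, where 2.42% of all genes fell in AET_MET and 6.45% in AET. The median log2 change of the 19 was -0.54 in AET_MET and -0.42 in AET, against 0.0026 and 0.01 over all genes. Angptl4, an inhibitor of lipoprotein lipase, changed by -1.94 ± 0.29 in AET_MET and -2.32 ± 0.29 in AET. Ucp3, the mitochondrial carrier named above, had 187, 186 and 135 CPM in AET_MET, 129, 150.1 and 186 CPM in AET, and 308, 366 and 442 CPM in SED. It changed by -1.14 ± 0.18 in AET_MET and -1.26 ± 0.18 in AET (edgeR adjusted p = 0.012 and 0.00321). Acot1, a cytosolic acyl-CoA thioesterase, changed by -2.57 ± 0.39 and -2.15 ± 0.37, the AET call being lost without AET replicate 1 (adjusted p = 0.052). Acot2, its mitochondrial relative, changed by -1.32 ± 0.30 in AET, a call lost with the replicate block, with no low-count filter, with the slow fiber covariate and in 6 of 9 fits without 1 library (adjusted p up to 0.119). Acadl, a dehydrogenase of fatty acid oxidation, changed by -0.59 ± 0.13 in AET_MET, a call lost with the replicate block and without AET_MET replicate 3 or SED replicate 2 or 3 (adjusted p up to 0.091). Slc25a20, the mitochondrial acylcarnitine carrier, changed by -0.58 ± 0.11 in AET_MET and -0.45 ± 0.11 in AET. None of the 19 was called in AET_MET against AET. This list was chosen with earlier results of these data known. A part of PPAR factors or fatty acids in these changes was not tested. The Angptl4 call in AET_MET was lost without AET_MET replicate 1 (adjusted p = 0.0597). The Slc25a20 calls were each lost in 4 of 9 fits without 1 library (adjusted p up to 0.0894 in AET_MET and 0.0858 in AET). When the slow fiber level was a covariate, the AET_MET calls against SED of Cebpb, Foxo3, Klf15, Lpin1, Foxo1, Ppargc1b, Angptl4, Ucp3, Acot1, Acadl, Slc25a20, Bckdha and Dlst were all lost, with adjusted p from 0.0968 to 0.385.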

How the data were processed

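Total RNA of gastrocnemius gave 9 libraries (SMARTER mRNA-Seq kit, per the labels' protocols), 3 each in AET_MET, AET and SED. The table deposited by the authors holds RSEM expected counts per gene, 1 column a library, matched to samples by library name. STAR 2.5.3a, RSEM 1.3.0, edgeR 3.34.0 and GRCm38 are named without roles, per the submitters' processing notes. The sources used here give no annotation release, filter or strand setting, so reads of a gene and its antisense partner cannot be told apart. Expected counts were rounded, and 52083 of 55416 identifiers received a GENCODE M21 symbol.

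The test was edgeR 4.0.16 (R 4.3.3) with filterByExpr, TMM, and a robust quasi-likelihood fit of all 9 libraries with 6 residual degrees of freedom. Log2 CPM used a prior count of 2. DESeq2 1.42.0, limma 3.58.1 and 19 other settings were alternatives. Scripts were tested on simulated data.

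The genes and lists were chosen with earlier results of these data known. The text names all 10 genes, up to 5 called genes of smallest p per list and comparison, and the 5 genes closest to Pdk4. Foxo1 in AET, Ppargc1b in AET_MET, Nr4a1, Ppargc1a and genes given as not called were named after their values were seen. No pair of libraries in a group agreed within sampling noise: the lowest chi-square divided by its degrees of freedom was 16.2. One list of genes around the complex is not reported here.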

Additional observations from a re-analysis of the deposited data

How the results depend on the processing

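Of the 10 genes, 3 were called in AET against SED under every setting, except 2 without AET replicate 1. In AET_MET against SED, 4 were called, 3 with library sizes alone, with no low-count filter, with only the 2 groups and with the replicate block, 1 with the slow fiber covariate, and 2 to 4 with 1 library left out. In AET_MET against AET, 0 were called, 1 (Pdhx) with at least 5 CPM in 3 libraries or with DESeq2, and 0 with 1 library left out. The cause was not tested.

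Signs turned only for values that were not called. Pdk1 became -0.00026 in AET against SED with no filter. In AET_MET against SED, Pdk1 became 0.022 with upper-quartile scaling, 0.096 with library sizes alone, 0.00084 with at least 5 CPM and 0.047 with the slow fiber covariate. In AET_MET against AET it became 0.071 with library sizes alone and 0.017 with the slow fiber covariate. In AET against SED, Pdha1 became 0.027 with upper-quartile scaling, 0.0083 with library sizes alone, 0.021 with at least 5 CPM and 0.0093 with the slow fiber covariate. Pdk3 became -0.36 in AET_MET against SED with that covariate, and Pdpr 0.065 in AET_MET against AET with library sizes alone. With 1 library left out, log2 changes in AET against SED ran from -0.059 to 0.072 for Pdk1, -0.085 to 0.074 for Pdha1, -0.0599 to 0.103 for Pdhb and -0.18 to 0.0052 for Dlat. In AET_MET against SED they ran from -0.043 to 0.054 for Pdk1 and -0.0596 to 0.451 for Pdk3. In AET_MET against AET they ran from -0.068 to 0.053 for Pdk1 and -0.199 to 0.323 for Pdp2.

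Over all genes, calls in AET against SED, AET_MET against SED and AET_MET against AET numbered 1712, 640 and 478. With 1 library left out they numbered 934 to 1509, 141 to 655 and 23 to 461, and with the slow fiber covariate 1197, 20 and 23. In AET_MET against AET they numbered 767 with library sizes alone, 888 with DESeq2 and 731 with no filter. Library sizes alone moved the median of all genes by 0.101 in AET_MET against SED. With the longest transcript as length, a choice made after seeing the data, Pdk4 made up 84.6% of the kinase sum in AET_MET, 80.0% in AET and 92.0% in SED. Deviations of same-numbered samples of different groups from their group means had correlations of -0.0509 to 0.184, of which 2 of 9 were above 0.1. Differently numbered samples had correlations of -0.172 to 0.140. The highest of all was that of AET_MET replicate 1 with SED replicate 1. With the replicate block, the calls among the 10 genes numbered 3, 3 and 0, the call lost being Pdp2 in AET_MET against SED (log2 change -1.32, adjusted p = 0.0675), and 4 of 9 libraries correlated best with their own number. Depth limits Pdk3 alone among the 10 genes, at 12 to 24 counts.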
